A study of Mus musculus with 8 samples.

Results

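The comparison described here is the response of mouse bone marrow derived macrophages to 3 h of IFN-β (a type I interferon) in cells given PBS, the vehicle, and no spermine. It sets the 2 libraries titled PBS with IFN-β for 3 h against the 2 titled PBS at 0 h, so it used 4 of the 8 libraries of the series. The other 4 are the same times in cells treated with spermine, a polyamine. In the main analysis they entered only the choice of genes to test, the estimate of the spread and 1 test of the difference between the responses. All 11421 genes with at least 1 FPKM (fragments per kilobase of gene, on the scale deposited for each library) in at least 2 of the 8 libraries were examined. The table held 54532 genes, and 9810 of those examined were protein coding. The series states its subject as the action of spermine on JAK1 and on cytokine responses, and the PBS cells supply the response without added spermine. The labels give no genotype, strain, age or sex for the mice and no dose of IFN-β. They do not say whether the libraries numbered 1 and 2 came from separate animals or cultures, so the spread between them may be technical. There was no library held for 3 h without IFN-β, so the cytokine and the time in culture cannot be told apart. The titles name PBS as the vehicle, whereas the series description names DMSO.

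IFN-β binds a receptor of the chains IFNAR1 and IFNAR2, whose kinases TYK2 and JAK1 phosphorylate STAT proteins. STAT2 and IRF9 are subunits of a factor that binds the interferon-stimulated response element (ISRE) in the promoters of interferon-stimulated genes, while STAT pairs bind the gamma-activated site (GAS). The genes so induced code for proteins that block viral entry, translation and release, that present antigen, that recruit other leukocytes, and that in turn shut the signal down. Bone marrow derived macrophages are a standard cell for this pathway.

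The extraction note in the labels speaks of blood, and the labelled cell type was therefore checked against marker genes. All 10 macrophage markers were expressed in all 4 PBS libraries. Lyz2, the macrophage lysozyme, was at 9486 and 8433 FPKM at 0 h and 8615 and 7799 FPKM at 3 h. Csf1r, the receptor of the macrophage growth factor, was at 724 and 748 FPKM at 0 h and 677 and 713 FPKM at 3 h. Cd68 was at 989 and 956 FPKM at 0 h and 1173 and 1116 FPKM at 3 h. Hba-a1 and Hbb-bs (erythroid), Cd3e, Cd3g and Cd3d (T cell), Igkc (B cell), Ly6g and Retnlg (neutrophil), and Ncr1, Nkg7, Gzma and Prf1 (NK cell) were all listed at 0 in the 4 libraries. The summed level of the 10 neutrophil markers ran from 6.08 to 6.14 FPKM at 0 h and from 8.89 to 10.2 FPKM at 3 h, and that of the 7 T cell markers from 2.70 to 2.75 and from 7.67 to 8.01. The 7 dendritic cell markers summed to between 0.442 and 0.469 FPKM at 0 h and between 3.66 and 5.04 FPKM at 3 h. The 5 endothelial markers summed to between 15.2 and 15.9 FPKM at 0 h and between 45.7 and 46.8 at 3 h, and the 5 osteoclast markers to between 8.75 and 10.6 and between 10.9 and 11.4. Single markers of other cells moved with the cytokine. Xcr1, a dendritic cell chemokine receptor, went from 0.118 and 0.0891 FPKM to 4.34 and 2.98 FPKM. Lck, a T cell kinase, stood at 0.0745 and 0.0847 FPKM before IFN-β and at 4.67 and 3.95 FPKM after it. Kdr, the VEGF receptor 2 of endothelium, was at 2.43 and 2.37 FPKM at 0 h and 37.3 and 36.3 FPKM at 3 h. Cdh5, an endothelial cadherin, was higher at 3 h but under 1 FPKM, at 0.208 and 0.165 and then 0.784 and 0.707. Pecam1 went from 0.386 and 0.327 to 1.02 and 0.586 FPKM, and Tek reached at most 0.0912. Vwf, von Willebrand factor and the most abundant endothelial marker at 0 h, fell from 12.1 and 13.1 to 7.61 and 8.14. Flt3 and Zbtb46, which define dendritic cells, were at most at 0.0424 FPKM in any of the 4 libraries. Clec9a, another dendritic cell marker, went from 0 and 0.0301 to 0.392 and 0.376 FPKM. The others, Ccr7, Siglech and Cd209a, were at most at 0.205 FPKM. The part of such cells in the results was not tested, and in bulk RNA fewer cells of a type and less RNA per cell cannot be told apart.

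Over all genes, 2807 rose and 2854 fell by limma's moderated test on log2(FPKM + 1) with an adjusted p under 0.05, which together is 49.6% of those tested, 24.6% rising and 25.0% falling. Changes of at least 1 on the log2 scale were less evenly split. By that much 1233 genes rose (10.8% of those tested) and 522 fell (4.57%). In every one of these genes the libraries at 3 h lay apart from those at 0 h. They had passed a test on the same values, so this is no separate support. Among the genes that passed on the deposited scale, 262 rose by at least 3 and 82 by at least 5, while 46 fell by 2 or more and none by 3 or more. The lowest change was -2.98, of S1pr1 (-3.44 in TPM), and the highest 10.75, of Cxcl10. Counts in each direction depend on the scale: after rescaling each library to TPM, which fixes the total of every library, 1698 genes rose and 6370 fell, and after quantile normalization 2334 rose and 4047 fell. The split of the changes of at least 1 turned round in TPM, with 932 rising and 1488 falling, and was 1090 and 789 after quantile normalization and 1460 and 1006 with a pseudocount of 0.1. Changes of -3 or lower numbered 11 in TPM, 5 after quantile normalization and 48 with a pseudocount of 0.1. The deposited FPKM values hold the median gene steady, with a median change of -0.02, and TPM lowers it to -0.41, so a small rise on the deposited scale can be a fall in TPM. All 1233 genes that rose and all 522 that fell by at least 1 kept their direction in TPM. With 2 libraries a group, a change is given below as the log2 change ± its SE, from a spread shared by all 4 groups. The counts for each list below stand beside the 24.6% of all genes that rose and the 25.0% that fell. Members under 1 FPKM at 0 h could be tested only where other libraries reached the filter. Lists with such members therefore lean towards rises.

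**Figure D1:**
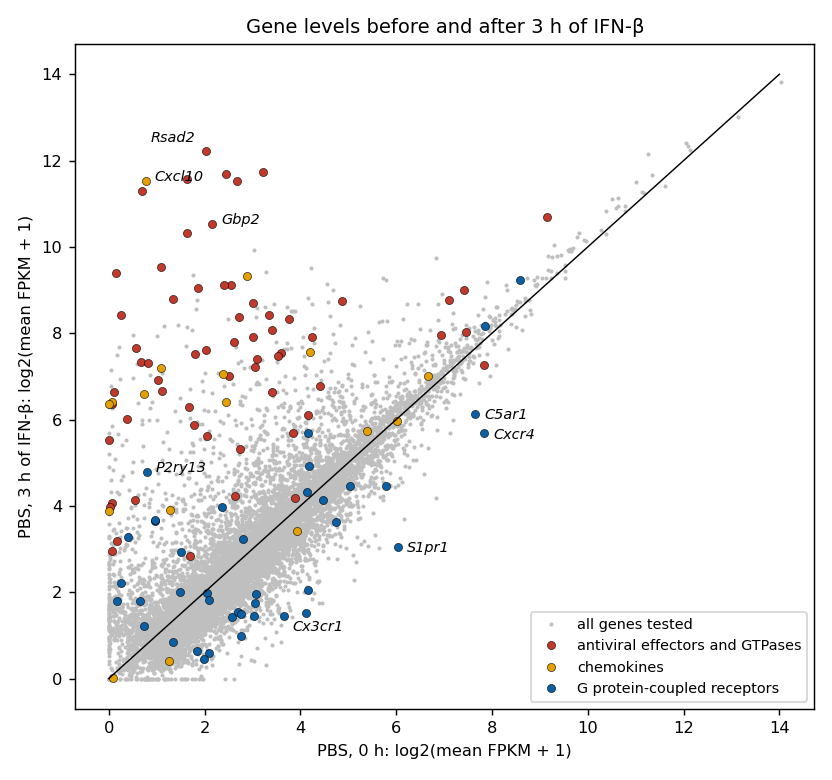
Mean level of each of the 11421 genes tested at 0 h (horizontal axis) and after 3 h of IFN-β (vertical axis), both as log2(mean FPKM + 1) over 2 libraries. The line marks equal levels. Antiviral effectors and GTPases, in red, lie far above the line, up to Rsad2, whereas several G protein-coupled receptors, in blue, lie below it, with S1pr1 farthest at -2.98.

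The induced genes took up a large part of the messenger RNA within 3 h. The 262 genes that rose by at least 3 held 0.754% and 0.685% of the reads of the 0 h libraries and 20.8% and 19.3% of those of the 3 h libraries. The 107 genes of 5 lists of antiviral proteins alone went from 0.733% and 0.683% to 15.2% and 13.9%. Genes that fell by at least 1 went from 4.69% and 4.83% to 1.10% and 1.19%, and the 79 ribosomal protein genes from 2.56% and 2.63% to 1.91% and 2.10%. On the FPKM scale those 79 had a median log2 change of 0.14, with 6 rising and 1 falling. At 0 h 297 genes, and at 3 h 484, stood at 100 FPKM or more in both libraries. Of the 100 most abundant genes at 3 h, 31 had risen by at least 3, and 61 were already among the 100 most abundant at 0 h.

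**Figure D2:**
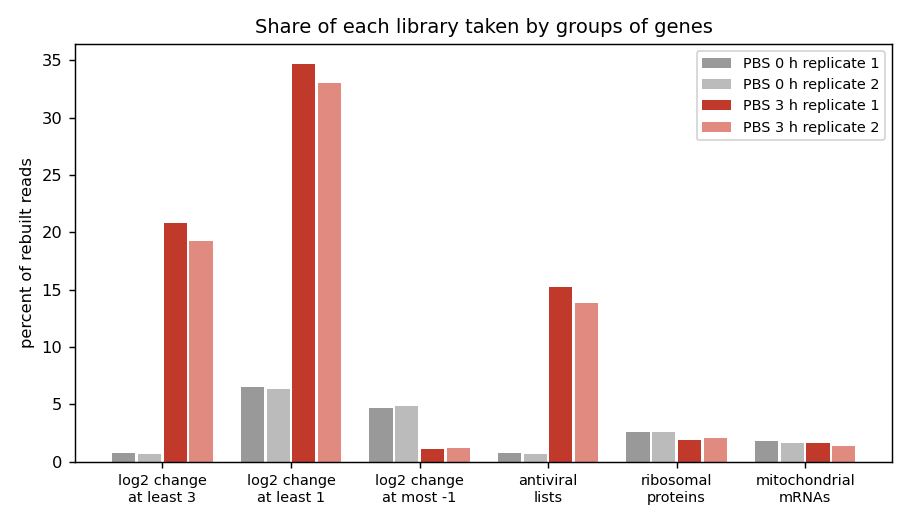
Percent of the reads of each PBS library, rebuilt from the FPKM values, that fell in groups of genes defined by log2 change or by function. Bars are single libraries, grey for 0 h and red for 3 h; genes with a change of at least 3 go from 0.754% and 0.685% to 20.8% and 19.3%.

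Some of the induced genes were close to silent beforehand. A total of 76 genes, 56 of them protein coding, were under 1 FPKM in both 0 h libraries and at 10 FPKM or more in both 3 h libraries, and 16 of the 76 passed 100 FPKM. The chemokine gene Cxcl10 had the highest log2 change of all genes, from 0.834 and 0.573 to 2999 and 2870 FPKM (10.75 ± 0.12, adjusted p = 2e-08). Iigp1, an immunity-related GTPase that attacks parasite vacuoles, went from 0.112 and 0.0954 FPKM to 756 and 589 FPKM (9.24 ± 0.12). The pseudocount of 1 lowers the change of genes so near 0: with a pseudocount of 0.1 Iigp1 had 11.68 and Cxcl10 11.85. Ch25h, the enzyme that makes 25-hydroxycholesterol, stood at 0.162 and 0 FPKM before IFN-β and at 98 and 99 FPKM after it. Lipg, endothelial lipase, was at 0.0115 and 0.0524 FPKM at 0 h and 105 and 113 FPKM at 3 h. Ccl12, a monocyte chemokine, had no read in either 0 h library and stood at 85 and 76.1 FPKM at 3 h. With 3 reads as the floor in each library, its level at 3 h was at least 291-fold higher. Only Slc26a11, an anion transporter, went the other way, from 11.3 and 10.8 to 0.794 and 0.789 FPKM.

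Promoter sequences were set beside the response, since IFN-β acts through short DNA elements. A window of 300 bases, 250 before and 50 after the gene start, was at hand from RefSeq (build GRCm38.p6) for 7965 of the 9810 protein-coding genes, matched by symbol, or by synonym where no other tested gene had that entry. Each window was searched on both strands for an ISRE core (GAAA, any 2 bases, GAAA), a GAS core (TTC, any 3 bases, GAA) and an NF-κB core (GGG, any 3 bases, TTCC), and the matches of ISRE and GAS cores can overlap. The stretches below are those of 3 of the most induced effectors, of the ubiquitin-like modifier Isg15, of the feedback inhibitor Socs1 and of the transcription factor Irf1. They run from 20 bases before the first match to the base before the start, in the direction of the gene. The exception is Ifit1, whose stretch ends 18 bases earlier, before the deposited gene start, which lies upstream of the RefSeq start. ISRE and GAS matches are in capitals.
Rsad2, chr12:26456453-26456592, minus strand: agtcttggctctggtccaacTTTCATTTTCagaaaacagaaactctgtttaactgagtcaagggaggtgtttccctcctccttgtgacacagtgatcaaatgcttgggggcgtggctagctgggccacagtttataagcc
Cxcl10, chr5:92348890-92349122, minus strand: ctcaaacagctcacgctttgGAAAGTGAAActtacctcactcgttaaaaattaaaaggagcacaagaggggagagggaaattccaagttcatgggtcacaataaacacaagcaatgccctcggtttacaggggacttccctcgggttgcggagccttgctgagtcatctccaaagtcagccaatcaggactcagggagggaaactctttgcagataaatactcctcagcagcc
Ifit1, chr19:34640765-34640870, plus strand: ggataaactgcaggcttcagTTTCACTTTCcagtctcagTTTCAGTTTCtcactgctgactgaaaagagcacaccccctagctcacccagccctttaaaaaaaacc
Isg15, chr4:156200819-156200916, minus strand: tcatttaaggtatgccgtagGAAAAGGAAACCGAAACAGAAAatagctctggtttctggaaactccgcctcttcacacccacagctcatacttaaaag
Socs1, chr16:10785537-10785639, minus strand: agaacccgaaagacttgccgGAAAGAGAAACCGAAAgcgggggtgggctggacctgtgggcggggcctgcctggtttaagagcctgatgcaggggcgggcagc
Irf1, chr11:53769904-53770013, plus strand: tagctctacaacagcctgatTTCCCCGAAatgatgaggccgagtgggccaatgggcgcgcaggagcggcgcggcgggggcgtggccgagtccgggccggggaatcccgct
The capitals are an ISRE core in the first 5 and a GAS core in Irf1. Isg15 holds 3 overlapping ISRE matches and Socs1 2 overlapping ones, Ifit1 has 2 separate matches, and Rsad2 and Cxcl10 have 1 each. The most upstream match begins 120 bases before the RefSeq start in Rsad2, 213 in Cxcl10, 104 in Ifit1, 78 in Isg15 and 83 in Socs1. The GAS match of Irf1 begins 90 before it. The window of Irf7 held neither motif before its start.

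The share of promoters with an ISRE core followed the size of the rise. It was 55.9% among the 59 genes that rose by at least 5, 22.2% among the 117 that rose by 3 to 5 and 7.75% among the 632 that rose by 1 to 3. It was 3.08% among the 6796 that changed by less or did not pass and 2.22% among the 361 that fell by at least 1. Over all 27025 genes of the promoter table it was 3.99%. The GAS core showed a shallower order, with 20.3% of the genes that rose by at least 5, 16.2% and 9.49% in the next classes, 7.87% of those under 1 and 9.55% of all genes in the table. The NF-κB core was in 15.3% of the first class, 8.55% and 6.80% of the next ones, 7.45% of those under 1 and 6.31% of all. The genes with a rise of at least 3 and an ISRE match numbered 59 in both classes together and held 80 matches. The median position of the matches was 54.5 bases before the start, and 82.5% of them began within the 200 bases before it. The window reached only 250 bases before the start and 50 after it, so most matches placed at random would also begin there. Positions in other genes were not examined. A match is a string of letters, and binding was not measured.

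**Figure D3:**
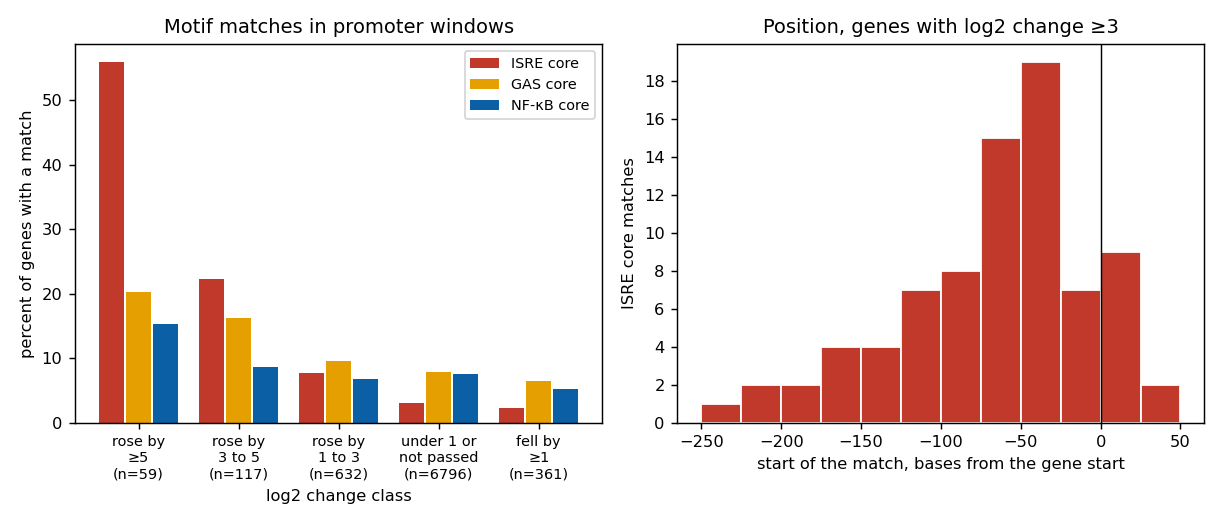
Left, percent of genes with a match to each of 3 motifs in the promoter window, by class of log2 change, with the number of genes under each class. Right, distance of ISRE core matches from the gene start among genes that rose by at least 3. Of the 80 matches 82.5% begin within 200 bases before the start, in a window of 250 bases before and 50 after it.

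Of 19 tested genes for interferon receptors, their kinases and STATs, 12 rose and 7 fell, with a median change of 0.60, where 24.6% of all genes rose, 25.0% fell and the median was -0.02. Stat2 and Irf9, subunits of the ISRE-binding factor, rose. Stat2 went from 13.2 and 11.2 FPKM to 216 and 221 FPKM (4.06 ± 0.12, adjusted p = 4.5e-07). Irf9, the DNA-binding subunit, stood at 8.34 and 7.89 FPKM before IFN-β and at 47.7 and 44.2 FPKM after it (2.37 ± 0.10). Jak2, the kinase of the interferon-γ and haematopoietic cytokine receptors, rose by 2.65 ± 0.12, and Tyk2 by 0.70 ± 0.13, a call that was lost in TPM (adjusted p = 0.12). Receptor genes went both ways. Ifnar1 fell by 0.30, from 39.9 and 36.9 to 31.4 and 30.4 FPKM, and Jak1 and Ifnar2 were higher by 0.30 and 0.18 on the deposited scale but lower in TPM. The calls of these 3 were each lost when some single libraries were left out. Both chains of the receptor for interferon-γ fell: Ifngr1 from 54.1 and 49.5 to 16.5 and 16.5 FPKM (-1.59 ± 0.11, adjusted p = 3e-05) and Ifngr2 from 52 and 49.2 to 30.2 and 27.1 FPKM (-0.80 ± 0.08). Il10rb, shared by the interleukin-10 and interferon-λ receptors, fell by 0.62, while Il10ra, the other chain for interleukin-10, was at 46.5 and 45 FPKM at 0 h and 128 and 133 FPKM at 3 h (1.49 ± 0.06).

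Among 17 interferon regulatory and BATF factors 14 rose and 2 fell, with a median change of 3.68. Irf7, which drives further interferon production, went from 22 and 23.3 FPKM to 515 and 609.5 FPKM. Irf1 stood at 6.33 and 5.84 FPKM before IFN-β and at 141 and 151 FPKM after it. Batf2 was at 0.693 and 0.885 FPKM at 0 h and 63 and 62.3 FPKM at 3 h. Zbp1, a sensor of Z-form nucleic acid that was placed in the same list, went from 2.35 and 1.81 FPKM to 300.3 and 260.1 FPKM (6.51 ± 0.11). Irf2bp2, a corepressor that partners IRF2, fell by 1.23, from 28.7 and 34 to 10.2 and 15.9 FPKM. Of 19 brakes on the signal, 13 rose and 3 fell. Socs1, which blocks JAK kinases, stood at 0.165 and 0.154 FPKM before IFN-β and at 158 and 251 FPKM after it, with a change of 7.43 ± 0.24, and its 3 h libraries lay farther from each other than those of Usp18. Usp18, which removes ISG15 and blocks IFNAR2, was at 2.71 and 2.51 FPKM at 0 h and 441 and 429 FPKM at 3 h. Socs3, the brake on STAT3, went from 0.816 and 0.91 FPKM to 17.1 and 21.8 FPKM. Socs5 fell from 6.91 and 7.24 to 2.23 and 2.09 FPKM.

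All 26 genes tested for viral RNA binding and degradation rose, each by at least 1, with a median change of 4.55. The RNA-binding Ythdf1 had one of the smallest, 1.96. Ifit1bl1 stood at 0.672 and 0.567 FPKM before IFN-β and at 2734 and 2284 FPKM after it. Ifit2, which binds viral RNA and curbs its translation, was at 4.76 and 4.08 FPKM at 0 h and 3682 and 2964 FPKM at 3 h. Ifit1, which recognises RNA without a host cap, went from 6.66 and 4.09 FPKM to 3307 and 2634 FPKM. Ifit3 stood at 8.73 and 7.82 FPKM before IFN-β and at 3643 and 3143 FPKM after it. In these 4 genes the 2 libraries of each time lay far from those of the other. Of 19 genes for viral entry, replication and release, 17 rose and 1 fell. Rsad2, or viperin, which makes a chain-terminating nucleotide, reached 5125 and 4434 FPKM from 3.23 and 2.92, and Cmpk2, its neighbour and a mitochondrial nucleotide kinase, reached 3035 and 3038 from 2.51 and 1.67. Mx1, a GTPase that traps influenza nucleoprotein, was at 2.38 and 1.85 FPKM at 0 h and 1369 and 1180 FPKM at 3 h. The one to fall was Apobec1, a cytidine deaminase that edits messenger RNA, from 233 and 219 to 163 and 143 FPKM (-0.56 ± 0.09, adjusted p = 0.0017). Ifitm2, a block to virus entry that was abundant beforehand, went from 179.5 and 169 FPKM to 252 and 266 FPKM (0.57 ± 0.09), a rise that did not pass in TPM and was -0.21 after quantile normalization.

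The 23 genes for ISG15, PARP and TRIM modification all rose, with a median of 3.91. Isg15 stood at 6.76 and 7.55 FPKM before IFN-β and at 864 and 1071 FPKM after it. Herc6, the mouse ligase that attaches it, was at 1.16 and 0.865 FPKM at 0 h and 71.7 and 54.3 FPKM at 3 h. Parp14, an ADP-ribosyl transferase, went from 13 and 11.5 FPKM to 412 and 362 FPKM, while Trim25, the ligase that activates RIG-I, was already at 71.2 and 71.3 FPKM and rose to 173 and 174. The 17 interferon-inducible GTPases tested, which coat and break the vacuoles of intracellular pathogens, rose as well and had the highest median of the 29 lists, 6.28. Gbp2b and Gbp10 were below the filter and not tested. Iigp1, Gbp4, Gbp5, Gbp7 and Tgtp1 were under 1 FPKM in both 0 h libraries. Such genes could be tested because other libraries reached 1 FPKM, so the filter itself favours rises in this list. Gbp2 stood at 3.85 and 3.06 FPKM before IFN-β and at 1596 and 1375 FPKM after it. Gbp5 was at 0.204 and 0.179 FPKM at 0 h and 367 and 313 FPKM at 3 h. All 19 tested members of the Schlafen and Ifi200 families rose (median 5.31). Ifi206, a DNA sensor relative, went from 1.33 and 1.14 FPKM to 325 and 246 FPKM. Slfn5 stood at 19.3 and 15.9 FPKM before IFN-β and at 761 and 690.0 FPKM after it. Slfn2, needed for lymphocyte and monocyte quiescence, started from 118 and 109 FPKM and rose by 2.90. Members of these families are close copies, and reads shared between copies make the split among them uncertain.

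**Figure D4:**
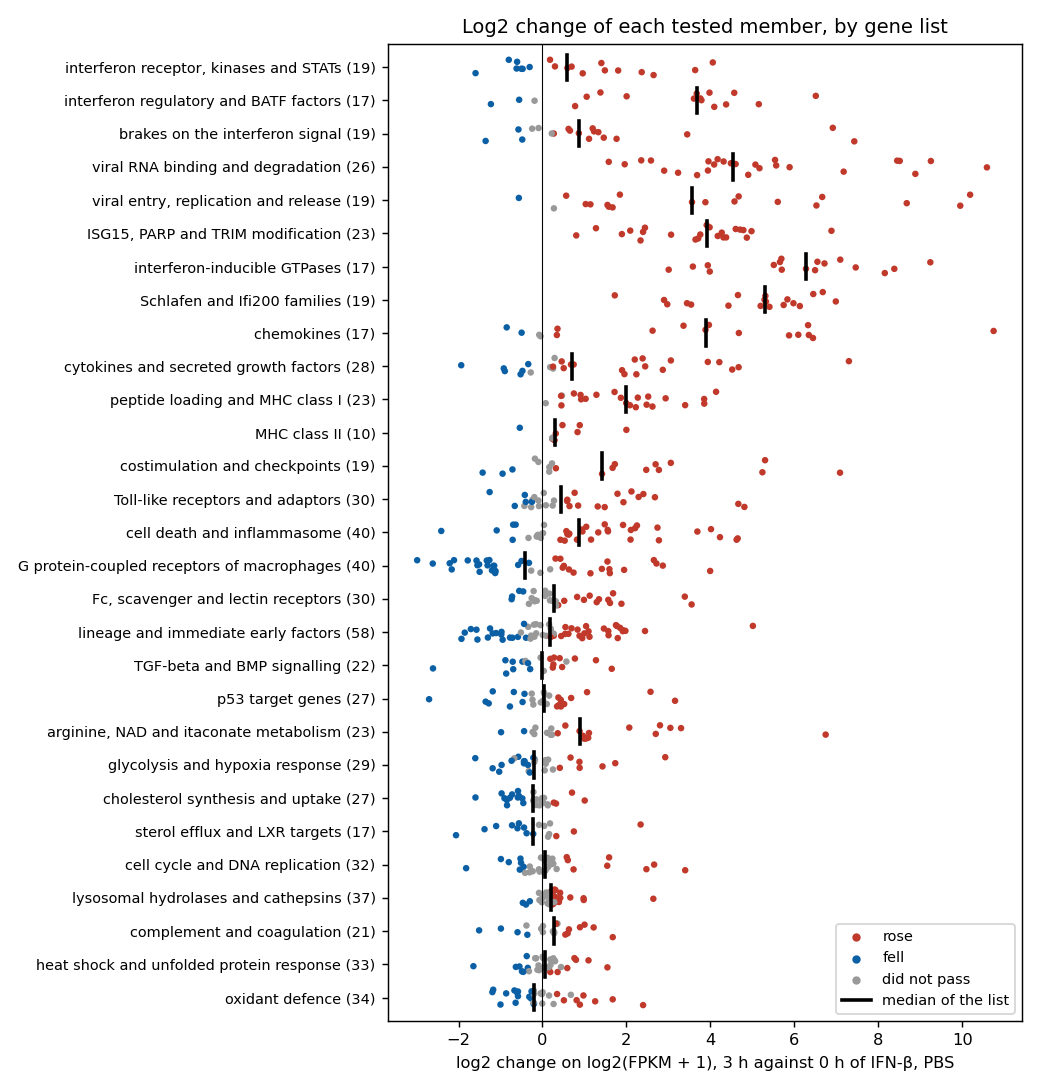
Log2 change, 3 h against 0 h of IFN-β, of each tested member of 29 gene lists, with the number tested in brackets. Red members rose and blue ones fell with an adjusted p under 0.05, grey ones did not pass, and the bar is the list's median; the GTPases have the highest median, 6.28, and the receptors coupled to G proteins spread to both sides.

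Some of the strongly induced genes lay in neighbourhoods. Of the 503 genes that rose by at least 2 (4.40% of those tested), 100 (19.9%) lay in 17 runs of at least 4 adjacent tested genes that all rose by that much. The longest, 11 genes on chromosome 11 from 48861968 to 49135387 (GRCm38), held the GTPase genes Irgm1, Tgtp1, Tgtp2 and Ifi47 and had changes from 2.71 to 7.10. A run of 10 genes on chromosome 7, from 104299894 to 104507849, held Trim12a, Trim12c and the Trim30 genes, among them Trim30c. Trim30c was at 0.662 and 0.173 FPKM at 0 h and 278 and 220.1 FPKM at 3 h. On chromosome 1, 2 runs of 8 and 7 genes held the Ifi200 family with Aim2. A run of 6 on chromosome 14, from 59244441 to 59440884, held Phf11a, Phf11b, Phf11c and Phf11d beside Setdb2, a histone methyltransferase gene, with changes from 3.47 to 5.50. On chromosome 3, from 59096448 to 59262871, the run Gpr171, P2ry14, P2ry13 and P2ry12 was made of nucleotide and related receptors with changes from 2.65 to 4.00. Some members of runs are unnamed models or pseudogenes within or beside a family gene. No source used here gives the strand used in counting, so their reads cannot be told apart from those of the gene they overlap.

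Of 17 chemokine genes tested, 13 rose and 2 fell, with a median change of 3.89. Cxcl10 and Cxcl9 are ligands of CXCR3 on T and NK cells, and Cxcl9 went from 0.0579 and 0.0329 FPKM to 93 and 74.2 FPKM. Ccl4, an inflammatory chemokine, stood at 7.21 and 5.49 FPKM before IFN-β and at 683 and 591 FPKM after it. Cxcl2, a neutrophil attractant, fell from 1.35 and 1.42 to 0.312 and 0.329 FPKM (-0.85 ± 0.12). The 28 cytokines and secreted growth factors moved both ways, with 18 higher and 6 lower and a median of 0.71. Tnfsf10, or TRAIL, a ligand that kills by death receptors, was at 0.158 and 0.113 FPKM at 0 h and 193 and 164 FPKM at 3 h. Il15, which sustains NK and memory T cells, went from 5.33 and 4.78 FPKM to 122 and 101 FPKM. Il15ra, which presents it, stood at 0.717 and 0.558 FPKM before IFN-β and at 42.2 and 39.3 FPKM after it, so ligand and presenting receptor rose together. Il27 was at 0.385 and 0.437 FPKM at 0 h and 29.8 and 33.2 FPKM at 3 h. Pdgfb and Igf1 fell instead. Pdgfb, a growth factor of mesenchymal cells, went from 26.7 and 33.5 FPKM to 6.59 and 7.6 FPKM (-1.94 ± 0.17, adjusted p = 9.4e-05). Igf1 stood at 44.9 and 41.4 FPKM before IFN-β and at 24.6 and 20.2 FPKM after it. Csf1, the growth factor of macrophages, went against that and was at 1.29 and 1.04 FPKM at 0 h and 32.1 and 32.2 FPKM at 3 h (3.94 ± 0.08).

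In the list of peptide loading and MHC class I, 21 of 23 rose and none fell, with a median of 2.00. B2m and H2-K1, abundant beforehand, had smaller log2 changes than Tap1 and Psmb10. B2m went from 2608 and 2249 FPKM to 5042 and 4100 FPKM (0.91 ± 0.13). H2-K1 stood at 600.4 and 646 FPKM before IFN-β and at 992 and 1105 FPKM after it (0.75 ± 0.09, and -3.5e-05 after quantile normalization). Tap1, the peptide pump, was at 12.9 and 13 FPKM at 0 h and 184 and 218 FPKM at 3 h. The immunoproteasome subunit Psmb10 went from 15.6 and 16.1 FPKM to 159.6 and 196 FPKM. The nonclassical genes H2-T24 and H2-T22 rose by 4.14 and 3.85. Of 10 class II genes 7 rose and 1 fell, only March1 by at least 1, with a median of 0.30 that is -0.15 in TPM. March1, a ligase that removes class II molecules from the surface, stood at 4.17 and 3.58 FPKM before IFN-β and at 21.1 and 16.1 FPKM after it. H2-DMa, which loads class II, rose from 9.61 and 8.5 to 16.9 and 17 FPKM.

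Of 19 costimulatory and checkpoint genes 11 rose and 3 fell. Cd69, an activation marker that retains lymphocytes in tissue, was at 0.0268 and 0.0534 FPKM at 0 h and 155 and 127 FPKM at 3 h (7.09 ± 0.10, adjusted p = 2.8e-08). Cd40, the receptor for T cell help, went from 0.615 and 0.612 FPKM to 62.6 and 62.9 FPKM. Cd274, the checkpoint ligand PD-L1, stood at 10.3 and 9.43 FPKM before IFN-β and at 443 and 380.3 FPKM after it, so stimulatory and inhibitory molecules rose side by side. Lgals9, a ligand of TIM-3, rose to 224 and 212 FPKM. The checkpoint gene Vsir, or VISTA, fell from 54.1 and 61.1 to 19.2 and 22.5 FPKM (-1.43 ± 0.10), and Sirpa, the receptor of the signal CD47, from 249 and 248 to 128 and 128. Havcr2, which codes for TIM-3, fell by 0.71. Fc receptors were among the larger rises of their list, in which 13 of 30 rose and 4 fell (median 0.27, or -0.15 in TPM). Fcgr1, the high-affinity receptor for IgG, was at 53.7 and 50.9 FPKM at 0 h and 638 and 611 FPKM at 3 h. Fcgr4 went from 38.6 and 34.8 FPKM to 418 and 372 FPKM. Mrc1, the mannose receptor, stood at 13.4 and 13 FPKM before IFN-β and at 56.7 and 46.6 FPKM after it. Axl, a receptor for apoptotic cells, was at 23.7 and 24.7 FPKM at 0 h and 79.6 and 80.2 FPKM at 3 h.

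Sensors of microbes moved unevenly. Of 30 Toll-like receptors and adaptors 15 rose, 5 fell and 10 did not pass, with a median of 0.43 that is -0.03 in TPM. Tlr3, which binds double-stranded RNA, went from 3.09 and 2.78 FPKM to 112 and 87.5 FPKM. Nod1, which binds bacterial peptidoglycan fragments, stood at 1.65 and 1.53 FPKM before IFN-β and at 68.1 and 75.7 FPKM after it (4.81 ± 0.09). Nod2 was at 0.975 and 1.26 FPKM at 0 h and 9.74 and 10.6 FPKM at 3 h. Mb21d1, the gene of the DNA sensor cGAS, went from 1.56 and 1.32 FPKM to 15.7 and 13.6 FPKM. Adaptors went both ways. Myd88, which serves most Toll-like receptors, rose by 2.12 ± 0.08, and Tmem173, the gene of STING downstream of cGAS, by 2.29 ± 0.08. Mavs, which relays RNA sensing, fell from 14.1 and 13.6 to 8.89 and 7.9 FPKM and Ticam1, which relays TLR3, from 9.12 and 9.07 to 6.27 and 6.83. Irak3, an inhibitor of Toll-like receptor signalling, fell from 8.73 and 8.06 to 3.04 and 2.81.

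Of 40 cell death and inflammasome genes 27 rose and 5 fell, with a median of 0.88. Casp4, the caspase that senses cytosolic lipopolysaccharide, stood at 3.04 and 2.34 FPKM before IFN-β and at 67.4 and 50.6 FPKM after it. The necroptosis effector Mlkl was at 6.48 and 4.93 FPKM at 0 h and 90.3 and 80.2 FPKM at 3 h (3.69 ± 0.12). Daxx and Pml code for components of the same nuclear bodies. Daxx went from 17.1 and 16.6 FPKM to 445 and 450.1 FPKM. Pml stood at 5.58 and 5.35 FPKM before IFN-β and at 154 and 163 FPKM after it. Members that start the mitochondrial pathway by binding BCL2 proteins fell: Bmf was at 10.6 and 9.72 FPKM at 0 h and 0.927 and 1.28 FPKM at 3 h (-2.41 ± 0.12, adjusted p = 6.2e-06). Bcl2l11, or BIM, went from 27.9 and 27.7 FPKM to 12.9 and 12.2 FPKM. Pmaip1, or NOXA, stood at 11.2 and 10.3 FPKM before IFN-β and at 6.77 and 5.66 FPKM after it. In all 3 the 3 h libraries lay below the 0 h libraries.

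**Figure D5:**
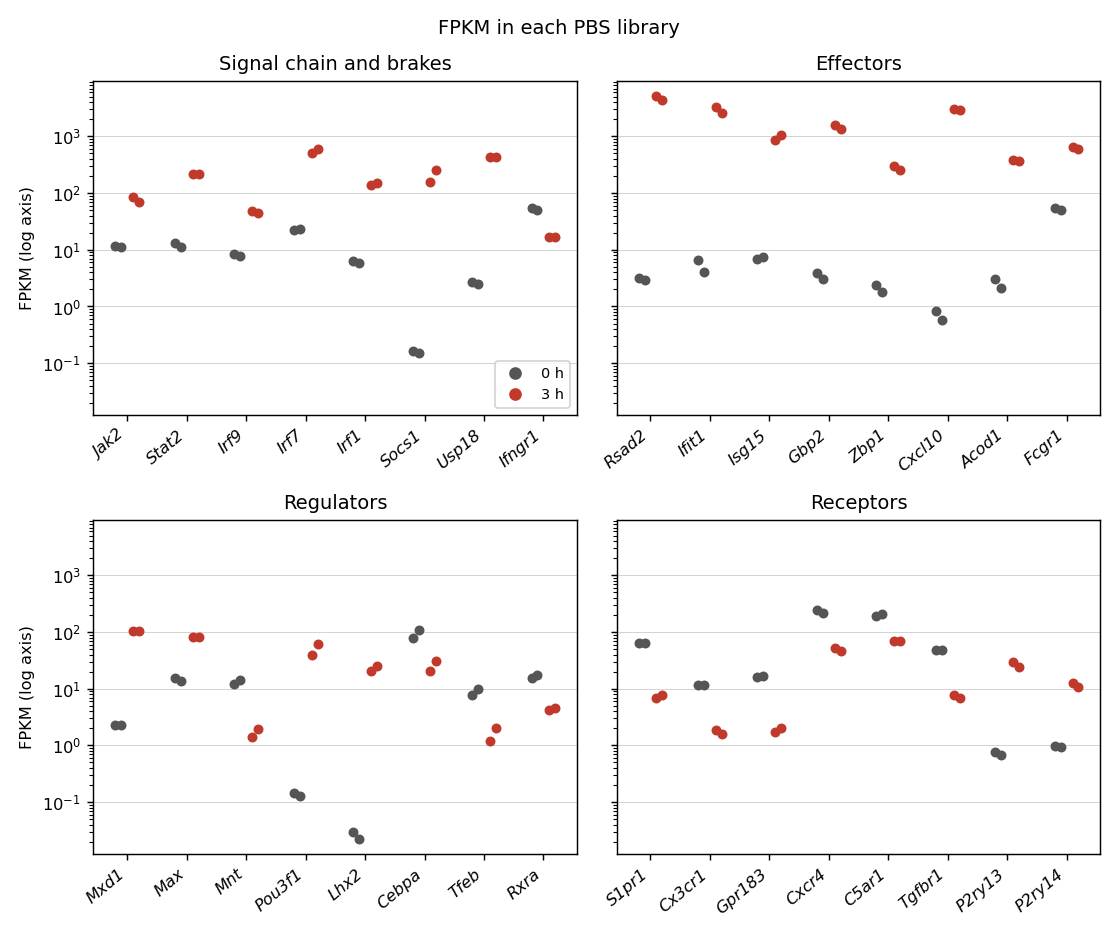
FPKM in each of the 4 PBS libraries for 32 genes in 4 groups, on a log axis. Each point is 1 library, grey at 0 h and red at 3 h; the 2 libraries of a time lie close together compared with the gap between the times, and Ifngr1, Mnt, Cebpa, Tfeb, Rxra and 6 of the 8 receptors are lower at 3 h.

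Receptors coupled to G proteins were the list with the most falls of at least 1, 18 of 40, where 4.57% of all genes fell by that much. In all, 21 fell and 16 rose, with a median of -0.41 (-0.78 in TPM). S1pr1, the receptor of sphingosine 1-phosphate that guides cells out of tissue, was at 64 and 65 FPKM at 0 h and 6.87 and 7.7 FPKM at 3 h (-2.98 ± 0.08, adjusted p = 3.5e-07). Gpr183, a receptor of oxysterols, went from 16.3 and 16.6 FPKM to 1.71 and 1.99 FPKM. Cx3cr1, the fractalkine receptor of resident macrophages, stood at 11.5 and 11.5 FPKM before IFN-β and at 1.84 and 1.58 FPKM after it (-2.21 ± 0.10). Cxcr4, the CXCL12 receptor that holds cells in the marrow, was at 241 and 216 FPKM at 0 h and 53.3 and 47.3 FPKM at 3 h. C5ar1, the receptor of complement C5a, went from 194 and 204 FPKM to 69 and 69.5 FPKM. In each of these 5 both 3 h libraries lay below both 0 h libraries. The cannabinoid receptor gene Cnr2 went from 16.4 and 17.1 to 2.84 and 3.42 FPKM. P2Y receptors for nucleotides split. P2ry6, a receptor of UDP, stood at 51.8 and 55.9 FPKM before IFN-β and at 19.9 and 21.9 FPKM after it (-1.33 ± 0.08), while P2ry13, P2ry14 and P2ry12, receptors of ADP and UDP-glucose and members of the run on chromosome 3, rose by 4.00, 2.72 and 2.65. Hcar2, the niacin receptor, rose to 9.32 and 7.95 FPKM. C3ar1, the receptor of C3a, was at 405 and 365 FPKM at 0 h and 653 and 544 FPKM at 3 h (0.63 ± 0.13), a rise that did not pass in TPM and was -0.11 after quantile normalization.

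TGF-β and BMP signalling held 9 rises and 8 falls among 22 genes (median -0.01, or -0.37 in TPM). Its lowest member was the type I receptor Tgfbr1, at 49.1 and 48.7 FPKM at 0 h and 7.64 and 6.75 FPKM at 3 h (-2.61 ± 0.10, adjusted p = 1.2e-06). Eng, an accessory receptor, went from 8.48 and 8.81 FPKM to 28.5 and 30.1 FPKM. Skil, a repressor of SMAD targets, stood at 29.1 and 29.3 FPKM before IFN-β and at 78.9 and 65.8 FPKM after it. Smurf2, a ligase that removes the receptors, fell by 0.88. Complement genes held 8 rises and 4 falls among 21, led by C3, the central component. C3 was at 15.1 and 15.8 FPKM at 0 h and 50.5 and 52.6 FPKM at 3 h. C1ra went from 1.1 and 1.2 FPKM to 4.04 and 3.97 FPKM. Thbd, the anticoagulant thrombomodulin, fell from 6.2 and 7.05 to 2.98 and 2.69 FPKM.

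Of 58 lineage and immediate early transcription factors 26 rose and 17 fell, with a median of 0.18 (-0.29 in TPM). Genes of the MYC and MAX network went both ways. Mxd1, which pairs with MAX to repress MYC targets, stood at 2.25 and 2.26 FPKM before IFN-β and at 103 and 106 FPKM after it (5.01 ± 0.06, adjusted p = 2.1e-08). Max itself was at 15.3 and 13.5 FPKM at 0 h and 82.7 and 82.6 FPKM at 3 h (2.44 ± 0.07). Mnt, another repressor that pairs with MAX, went from 12.2 and 14.3 FPKM to 1.43 and 1.93 FPKM (-2.42 ± 0.15, adjusted p = 1.4e-05). Mxd4 stood at 9.34 and 10.3 FPKM before IFN-β and at 2.46 and 2.66 FPKM after it. Myc was at 3.73 and 4.67 FPKM at 0 h and 0.607 and 0.888 FPKM at 3 h. Cebpa, needed for granulocyte and monocyte fate, went from 78.6 and 109.9 FPKM to 20.3 and 30.8 FPKM. Tfeb, which drives lysosomal genes, stood at 7.9 and 9.87 FPKM before IFN-β and at 1.19 and 2.05 FPKM after it. Rxra, the partner of many nuclear receptors, was at 15.7 and 17.4 FPKM at 0 h and 4.18 and 4.57 FPKM at 3 h. Lyl1, a blood stem cell factor, fell from 39 and 44 to 6.21 and 8.53 FPKM. Pou3f1, known from Schwann cells, went from 0.147 and 0.129 FPKM to 38.9 and 61 FPKM (5.45 ± 0.19). Lhx2, of brain and hair follicle, stood at 0.0298 and 0.0226 FPKM before IFN-β and at 20.8 and 25.7 FPKM after it (4.55 ± 0.12). Zinc finger genes, by contrast, held more falls than rises. Of 222 tested genes with a name in Zfp, 23 rose and 98 fell, with a median of -0.34 (-0.68 in TPM), where 24.6% of all genes rose and 25.0% fell. Zfp395 was among the lowest of all genes, at 9.09 and 10.0 FPKM at 0 h and 0.696 and 0.706 FPKM at 3 h.

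Of 23 genes of arginine, NAD and itaconate metabolism 14 rose and 2 fell, with a median of 0.88. Acod1, which makes itaconate, was at 3.03 and 2.08 FPKM at 0 h and 391 and 365 FPKM at 3 h (6.75 ± 0.14, adjusted p = 8.5e-08). Nampt, the rate-limiting enzyme of NAD salvage, went from 25.8 and 23.2 FPKM to 276 and 227 FPKM. Kmo, of the kynurenine pathway, stood at 0.0555 and 0.084 FPKM before IFN-β and at 7.37 and 5.63 FPKM after it. Srm, or spermidine synthase, fell from 8.98 and 8.75 to 3.58 and 4.41 FPKM (-0.99 ± 0.12, adjusted p = 0.00048). Glycolysis and hypoxia genes held 7 rises and 12 falls among 29 (median -0.19, or -0.67 in TPM). Pfkfb3, which makes the activator of phosphofructokinase, was at 5 and 4.97 FPKM at 0 h and 45.6 and 43.4 FPKM at 3 h. The hexokinase Hk3 went from 59.5 and 64.7 FPKM to 196 and 222 FPKM. The oxygen-sensing hydroxylase Egln3 fell from 3.2 and 2.67 to 0.162 and 0.442 FPKM and Egln1 from 15.3 and 17.5 to 7.04 and 7.97.

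Sterol genes held more falls than rises. Of 27 genes of cholesterol synthesis and uptake, 4 rose and 12 fell, with a median of -0.22 (-0.60 in TPM). Sqle, squalene epoxidase, stood at 19.3 and 20.4 FPKM before IFN-β and at 10.3 and 10.0 FPKM after it (-0.90 ± 0.09, adjusted p = 0.00018). The sterol carrier Stard4 was at 9.07 and 9.2 FPKM at 0 h and 2.87 and 1.91 FPKM at 3 h. Among 17 genes of sterol efflux and LXR targets 3 rose and 9 fell. Abcg1, an exporter of cholesterol, went from 14.7 and 16.1 FPKM to 78.4 and 85.6 FPKM (2.34 ± 0.08). Mylip, a ubiquitin ligase induced by LXR, stood at 25.6 and 25.1 FPKM before IFN-β and at 9 and 9.27 FPKM after it. Scd2, a fatty acid desaturase, was at 11.1 and 10.6 FPKM at 0 h and 1.98 and 1.7 FPKM at 3 h. Apoe, the most abundant of them, was at 2022 and 2623 FPKM at 0 h and 1912 and 2944 FPKM at 3 h and did not pass, its libraries differing more within a time than between times. The oxysterol enzyme Ch25h, given above among the silent genes, rose by 6.53.

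Oxidant defence held 8 rises and 15 falls among 34 genes (median -0.20, or -0.67 in TPM). Srxn1, sulfiredoxin, went from 145 and 145 FPKM to 61.9 and 63.5 FPKM (-1.19 ± 0.06, adjusted p = 4e-06). Gclc, of glutathione synthesis, stood at 31.6 and 30.7 FPKM before IFN-β and at 15.4 and 14.8 FPKM after it. Slc40a1, the iron exporter ferroportin, was at 11.4 and 10.1 FPKM at 0 h and 4.82 and 3.67 FPKM at 3 h. Keap1, which keeps the oxidant-response factor NRF2 low, went from 9.43 and 11.1 FPKM to 30.4 and 39.9 FPKM. Sod2, mitochondrial superoxide dismutase, rose by 0.98, and the zinc-regulated Slc30a1 and Mt1 by 2.40 and 1.26. Of 33 heat shock and unfolded protein response genes 7 rose, 7 fell and 19 did not pass, where 24.6% of all genes rose and 25.0% fell. Hspa5, the chaperone BiP, stood at 78.8 and 77.8 FPKM before IFN-β and at 239.8 and 222 FPKM after it. Its regulator Atf6 was at 14.9 and 14.4 FPKM at 0 h and 34.2 and 30.7 FPKM at 3 h. Herpud1, of the degradation arm, went from 5.65 and 5.98 FPKM to 1.14 and 1.22 FPKM (-1.65 ± 0.10, adjusted p = 1.4e-05). Of 37 lysosomal genes 18 rose and 3 fell, only Ctsc by at least 1, and their median was 0.22 (-0.25 in TPM). Ctsc, an activator of serine proteases, stood at 34.1 and 31.8 FPKM before IFN-β and at 226 and 197 FPKM after it.

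Of 32 cell cycle genes 8 rose, 7 fell and 17 did not pass, close to the shares of all genes (24.6% rose, 25.0% fell). The D-type cyclin Ccnd2 was at 0.153 and 0.158 FPKM at 0 h and 11.1 and 11.3 FPKM at 3 h. The related Ccnd1 went from 2.31 and 2.57 FPKM to 16.5 and 19.98 FPKM. Tpx2, a spindle factor, stood at 1.66 and 1.62 FPKM before IFN-β and at 16.8 and 14.7 FPKM after it. E2f2, a factor of the S phase, was at 9.88 and 10.9 FPKM at 0 h and 2.07 and 2.41 FPKM at 3 h (-1.82 ± 0.11), and the inhibitor Cdkn1b, or p27, fell from 13.8 and 14.8 to 7.26 and 6.19 FPKM. Targets of p53 held 10 rises and 8 falls among 27. Cdkn1a, or p21, went from 49 and 53 FPKM to 295 and 323 FPKM (2.58 ± 0.08, adjusted p = 4.5e-07). Gadd45g stood at 14.4 and 17.2 FPKM before IFN-β and at 125 and 176 FPKM after it. Sesn1, a stress sensor that restrains mTORC1, was at 21.8 and 20.1 FPKM at 0 h and 2.57 and 2.19 FPKM at 3 h (-2.70 ± 0.09). Gadd45a went from 4.58 and 4.84 FPKM to 1.01 and 1.47 FPKM.

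The largest rises among protein-coding genes outside the lists included Calhm6, Fgl2, Serpina3g and Ms4a4c. Calhm6, a channel of macrophage synapses, stood at 0.878 and 1.13 FPKM before IFN-β and at 226 and 264 FPKM after it. Fgl2, a secreted regulator of T cells, was at 2.4 and 2.29 FPKM at 0 h and 291 and 243 FPKM at 3 h. Serpina3g, a protease inhibitor, went from 0.0207 and 0 FPKM to 83.9 and 71.8 FPKM. Ms4a4c stood at 1.95 and 2.18 FPKM before IFN-β and at 225 and 187 FPKM after it. Among the largest falls, Fgd3, an exchange factor for CDC42, was at 32.4 and 35.4 FPKM at 0 h and 3.71 and 4.04 FPKM at 3 h (-2.84 ± 0.07). Cd300lb, an activating receptor of myeloid cells, went from 116 and 111 FPKM to 17.9 and 16.2 FPKM. Arhgap19, a GTPase-activating protein for RHOA, stood at 19.9 and 20.03 FPKM before IFN-β and at 2.52 and 2.23 FPKM after it. The potassium channel gene Kcnk13 was at 33.2 and 36.2 FPKM at 0 h and 5.43 and 5.51 FPKM at 3 h. Another, Kcnj2, went from 9.29 and 8 FPKM to 1.2 and 0.614 FPKM. Arrb1, β-arrestin 1, which uncouples G protein receptors, stood at 20.4 and 19.6 FPKM before IFN-β and at 3.44 and 4.08 FPKM after it. In each of these 6 both 3 h libraries lay below both 0 h libraries, which the rule for naming them required.

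Noncoding genes responded too. Of 167 lincRNA genes 28 rose and 15 fell by at least 1, and of 186 antisense genes 43 rose and 4 fell by that much. These are 16.8% and 23.1% for the rises, where 10.8% of all genes rose by at least 1. Their median levels at 0 h, 1.36 and 1.13 FPKM against 5.40 over all genes tested, lay near the filter of 1 FPKM. Some could thus be tested only because libraries at 3 h reached it. The higher shares therefore do not show that noncoding genes responded more. AW112010, an RNA known from activated immune cells, was at 1.64 and 1.8 FPKM at 0 h and 316 and 266 FPKM at 3 h (6.74 ± 0.09, adjusted p = 2.8e-08). Gm12250, an immunity-related GTPase gene that the file does not class as protein coding, went from 2.12 and 2.61 FPKM to 692 and 607 FPKM. Gm15513 and F630028O10Rik fell, from 9.6 and 7.81 to 0.183 and 0.316 FPKM and from 19.3 and 16.4 to 2.89 and 2.31 FPKM. Neat1, the scaffold of nuclear paraspeckles, stood at 59 and 64.2 FPKM before IFN-β and at 18.8 and 22.3 FPKM after it (-1.54 ± 0.12). Reads of antisense genes cannot be told apart from those of the gene on the other strand here.

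The same times were measured with spermine, and the difference between the responses was tested in the same limma fit. The log2 change was larger with spermine for 665 genes (5.82% of those tested) and smaller for 885 (7.75%), a balance that turned round in TPM, with 1141 larger and 638 smaller. The counts rest on the libraries used: leaving out single libraries gave between 222 and 688 larger changes and between 298 and 983 smaller ones. Of the 262 genes that rose by at least 3 in PBS, 124 had a smaller change with spermine and 19 a larger one. Of the 522 that fell by at least 1, 277 had a larger, that is less negative or positive, change and 1 a smaller one. The PBS libraries that chose these genes are part of the difference, so these counts are a description and not a test. Among the factors named above, Irf1 rose more with spermine, by a difference of 1.83 with an adjusted p of 0.0013, and Tap1 by 1.11 (adjusted p = 0.0072). AW112010 rose less, by a difference of -2.85 (adjusted p = 0.0012). The difference for Cx3cr1 was 2.42 (adjusted p = 0.0012), larger than its fall in PBS (-2.21).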

How the data were processed

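Poly(A) RNA of 8 macrophage libraries was sequenced, per the labels' protocols. The authors deposited 1 table of FPKM values per gene. The submitters' processing notes name DESeq2 1.20.0, featureCounts 1.5.0-p3, HISAT2 2.0.5, CASAVA 1.8, fastp and the build GRCm38 (mm10), with no role or order, and no source used here gives the counting strand. Multiplied by gene length, the values of a library were whole multiples of 1 step (100% within 0.001 of a whole number), which gave 15723437 to 17744844 rebuilt reads per library, so counting error weighs most in genes under 1 FPKM. Log2(FPKM + 1) values of genes with at least 1 FPKM in at least 2 of 8 libraries were fitted with limma 3.58.1 as 4 group means (empirical Bayes with an intensity trend, 4 residual degrees of freedom), with Benjamini-Hochberg adjustment over the 11421 genes, two-sided. A log2 change on this scale understates that of low genes. The deposited scale of a library is not its rebuilt read total alone. The 79 ribosomal protein genes went from a mean of 2.595% of reads at 0 h to 2.005% at 3 h in PBS. Their median log2 change on the FPKM scale was 0.14. The fit was tested on simulated data.

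Members, lists, motifs and markers were chosen with earlier results of these data known. Genes were named by rule: in each list the 4 largest and 3 smallest changes and the most abundant at 3 h, the 12 largest rises and 24 largest falls outside the lists, 6 each of other biotypes, the 15 most abundant genes that rose by at least 3, pathway genes and neighbour runs; some of these are left out of the text. Ch25h, Cnr2, Csf1, Cxcr4, Il10ra, Lhx2, Mlkl, Mxd4, Myc, Myd88, Neat1, P2ry6 and Tmem173 were added after their values were seen. The rises and falls outside the lists and of other biotypes were drawn only from genes whose 3 h and 0 h libraries did not overlap.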

Additional observations from a re-analysis of the deposited data

Results flagged for a closer look

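The response to IFN-β differed with spermine, by limma's test of the difference itself, for 110 of the 188 genes named in the report. Among all 11421 genes tested, the change was larger for 5.82% and smaller for 7.75%. Each value below is the log2 change with spermine minus that in PBS. A negative value in a gene that rose is thus a smaller rise. A positive value in a gene that fell is a smaller fall, or no fall where it exceeds the fall in PBS. The latter was so in genes such as Cx3cr1, Pmaip1, Apobec1, Thbd and Ifnar1. Of the 110 genes, 58 rose in PBS and had a negative difference and 10 rose and had a positive one. A further 41 fell and had a positive one, and 1 fell and had a negative one. The genes were named for their change in PBS, which is part of the difference, so their direction is no independent count.

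In the signal chain, the differences were 0.71 for Stat2, 0.54 for Irf9, 1.83 for Irf1, 0.44 for Ifnar1, 0.47 for Ifnar2 and 0.69 for Ifngr1, against -0.72 for Zbp1 and -1.79 for Socs1. Effectors of viral defence gave -1.13 for Rsad2, -0.88 for Mx1, -1.73 for Ch25h, -1.48 for Ifit1bl1 and -0.86 for Ythdf1. The cytidine deaminase Apobec1 had 0.99, and Parp14 and Trim25 rose more, by 0.73 and 0.32. GTPase genes went both ways, with -0.85 for Gbp2, -0.68 for Gbp5, -0.95 for Iigp1 and -0.84 for Tgtp1 but 1.17 for Irgm1, 0.98 for Ifi47 and 0.92 for Gm12250.

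Of the 17 chemokines tested 10 had a smaller response with spermine and 0 a larger one, and of the 28 cytokines and growth factors 9 and 4. Over all genes tested 7.75% were smaller and 5.82% larger. Of the 1233 genes that rose by at least 1 in PBS, 538 were smaller and 39 larger. As 13 of the 17 chemokines rose, their count is not set apart from that of rising genes. The named chemokines that differed gave -0.99 for Cxcl10, -2.25 for Cxcl9 and -1.97 for Ccl4. The named cytokines and growth factors gave -1.93 for Tnfsf10, -2.17 for Csf1, -1.82 for Il27, -0.49 for Il15ra and 1.10 for Pdgfb. For antigen presentation and costimulation the values were 1.11 for Tap1, -0.76 for H2-T24, -0.69 for Psmb10, -1.22 for Cd274, -0.70 for Cd40, -1.15 for Cd69, -0.64 for Lgals9, 0.75 for Sirpa and 1.25 for Vsir. Phagocytic receptors gave -1.11 for Fcgr4, -0.74 for Mrc1 and -0.40 for Axl. Sensing and death genes gave -1.06 for Tlr3, 0.42 for Ticam1, -1.01 for Mlkl, 1.62 for Bmf, 0.88 for Bcl2l11 and 1.47 for Pmaip1.

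Receptors that fell in PBS fell less: S1pr1 by 1.59, Gpr183 by 1.31, Cxcr4 by 1.08 and C5ar1 by 0.77. Cnr2 (1.24), P2ry6 (1.19) and Tgfbr1 (0.88) did so as well. Cx3cr1 had a difference of 2.42, larger than its fall in PBS (-2.21), so its change with spermine was not a fall. The receptor genes of the run on chromosome 3 gave -1.98 for P2ry12, -1.68 for P2ry13, -0.91 for P2ry14 and -1.10 for Gpr171. Regulators gave -0.85 for Max, 1.53 for Mnt, 0.83 for Mxd4, 0.54 for Rxra, 1.42 for Lyl1, 1.96 for Zfp395, -0.59 for Skil and 1.18 for E2f2. Cell cycle and p53 genes gave -1.67 for Ccnd2, -0.64 for Tpx2, 0.61 for Cdkn1b, -0.54 for Cdkn1a and 1.92 for Sesn1.

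Metabolic and stress genes gave -1.14 for Acod1, -1.69 for Nampt, -1.28 for Kmo, 0.68 for Srm, -1.19 for Pfkfb3, 1.18 for Mylip, 1.12 for Scd2 and -2.03 for Lipg. Further values were 0.63 for Srxn1, -0.35 for Gclc, -0.88 for Slc30a1, -0.88 for Hspa5, -0.55 for Atf6, 0.74 for Herpud1, -0.62 for Ctsc, -0.92 for C3 and 1.16 for Thbd. Among genes outside the lists, rises were smaller for AW112010 (-2.85), Calhm6 (-1.47), Fgl2 (-1.02), Ms4a4c (-1.64), Serpina3g (-1.99), Trim30c (-1.07), Phf11a (-1.42) and Phf11b (-0.82). The same held for Kdr (-0.81) and Lck (-1.29). Falls were smaller for Fgd3 (1.29), Arhgap19 (1.26), Arrb1 (0.68), Cd300lb (1.12), Kcnj2 (1.66), Kcnk13 (1.27), Slc26a11 (1.89), Gm15513 (1.19) and Neat1 (0.75).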

How the results depend on the processing

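On the scale that fixes each library's total (TPM), 1698 genes rose and 6370 fell, 1488 fell by at least 1, 1141 responses were larger and 638 smaller with spermine, and 292 list members fell, against 162. With genes of at least 5 FPKM only, 1851 fell. Falls of at least 1 numbered 1006 with a pseudocount of 0.1, 789 after quantile normalization (with 256 falls in the lists) and 1053 by limma voom on the rebuilt reads. Genes switched on numbered 48 when on meant 20 FPKM and 46 when off meant under 0.5 FPKM, against 76. Leaving out single libraries, the ranges were 2214 to 2808 rises and 2104 to 2868 falls, 1200 to 1281 and 515 to 568 of at least 1, 222 to 688 larger and 298 to 983 smaller responses with spermine, 359 to 402 rises and 136 to 162 falls in the lists, and 184 to 187 of the 188 named genes passing. Jak1 and Ifnar2 turned to -0.16 and -0.28 in TPM and to -0.12 and -0.26 after quantile normalization, which also turned C3ar1 to -0.11, Ifitm2 to -0.21 and H2-K1 to -3.5e-05. No named gene was reversed by any other setting.

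Each replicate number, BM1 or BM2 in the titles, occurs once in each of the 4 groups. No label says that it marks an animal or day, and the main fit left it out. Deviations of same-numbered libraries correlated at 0.229 across genes for PBS 0 h with 3 h and at -0.126 for spermine, and at 0.246, 0.371, -0.0615 and -0.089 for PBS 0 h with spermine 0 h, PBS 3 h with spermine 0 h, PBS 0 h with spermine 3 h and PBS 3 h with spermine 3 h. With the replicate block 2943 genes rose and 3013 fell, 1231 and 528 of them by at least 1, and 769 and 1044 responses differed with spermine in the larger and smaller direction, and no named gene lost its call. Per list, TPM moved the number of rises by over 1.5 times in 10 of 29 lists and of falls in 17, and quantile normalization in 8 and 11. edgeR and DESeq2 on rebuilt reads were not run, because the deposited unit is FPKM. With 2 libraries a group, a lone library was assumed to vary like the other groups.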
